A study of Saccharomyces cerevisiae with 15 samples.

Results

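The regions described here are genes of small nucleolar RNAs (snoRNAs) and small nuclear RNAs (snRNAs) of budding yeast, Saccharomyces cerevisiae, and the stretches of chromosome beside them. They were all 83 of 6803 array probes whose name is an SNR gene symbol, with or without a leading i. Without the i, 43 probes lie on the RNA gene itself, and with it, 40 probes lie on the region beside the gene. For 3 RNAs encoded in introns, that region lies beyond the host gene. The gene probes were 29 of box C/D snoRNAs, 10 of box H/ACA snoRNAs and 4 of snRNAs, and 40 RNAs had both kinds of probe.

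Box C/D snoRNAs guide the methylation of ribosomal RNA, box H/ACA snoRNAs guide its pseudouridylation, and a few members of both classes are needed to cut the ribosomal RNA precursor. snRNAs are the RNA core of the spliceosome, which in yeast removes introns from ribosomal protein (RP) transcripts in particular. Most yeast snoRNA genes are transcribed by RNA polymerase II from promoters of their own, many of which bind the factor Tbf1, while others sit in shared precursors or in introns. Fhl1, a forkhead-type protein, and its coactivator Ifh1 are known for binding RP gene promoters, and rapamycin inhibits the TOR kinases that drive ribosome synthesis.

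Each of the 15 two-colour arrays set DNA precipitated with a myc antibody from a tagged strain against that from untagged W303. Ifh1 was tagged in W303+IFH1-13myc-TRP1MX6, with 3 arrays from cells given rapamycin (200 ng/mL) and 4 from untreated cells. Fhl1 was tagged in W303+FHL1-13myc-HIS3MX6, with 5 arrays from cells given rapamycin (200 ng/mL) and 3 from untreated cells. All cultures were in log phase in YPD medium at 30 °C and were crosslinked for 30 min, and the labels call the replicates biological. The labels do not say how long rapamycin acted or whether the W303 chromatin set against it was also treated. A change in the share of cells with bound protein and a change in the amount bound per cell cannot be told apart.

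The values below are log2 ratios, centred on each array's median over all probes. The labels name 1 dye swap per condition but not the array, and arrays of 1 group pointed opposite ways at RP promoters. Each array was therefore turned so that the promoters of large-subunit RP genes had a positive median, and a positive value means the side on which those promoters lie. This side is clear for 12 arrays. Among them, replicates 1 and 3 with Ifh1 untreated, 1, 3 and 5 with Fhl1 in rapamycin, and 2 and 3 with Fhl1 untreated were turned. In Ifh1 untreated and Fhl1 in rapamycin each side held more than 1 array, so the turning does not identify the labelled dye swap. On the Ifh1 rapamycin arrays the RP promoters were near 0, so their sides are not settled. The tests that use these arrays were refitted under all 8 combinations of sides. Medians over lists of probes and counts of arrays that did not overlap are given for the sides used here. Deposited array medians also differed, being above 0.5 on 5 arrays, below -0.5 on 4 and between these on 6, and each of the 4 groups had arrays of all 3 kinds.

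No snoRNA or snRNA probe passed the test in any group. In limma, with Benjamini-Hochberg adjustment over all probes and a threshold of 0.05, 0 of the 83 probes were called with Ifh1 in rapamycin, where 0% of all probes were called. With Ifh1 in untreated cells 0 of 83 were called, against 0.353% of all probes. With Fhl1 in rapamycin 0 of 83 were called, against 0.97%, and with Fhl1 in untreated cells 0 of 83, against 0.661%. At an unadjusted p under 0.05 there were 6 of 83 members with Ifh1 in rapamycin (7.23%, against 5.26% of all probes) and 3 of 83 with Ifh1 untreated (3.61%, against 7.36%). The same threshold took 8 of 83 with Fhl1 in rapamycin (9.64%, against 7.03%) and 2 of 83 with Fhl1 untreated (2.41%, against 5.2%). The Ifh1 rapamycin count ran from 1 to 6 over the 8 combinations of sides, and that over all 6803 probes from 259 to 408.

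The regions that face RP genes show the size of signal the same arrays gave elsewhere. The median over the 122 such probes averaged 0.04 ± 0.05 on the Ifh1 rapamycin arrays, 0.91 ± 0.05 on the Ifh1 untreated arrays, 1.17 ± 0.33 on the Fhl1 rapamycin arrays and 1.26 ± 0.43 on the Fhl1 untreated arrays (SD over 3, 4, 5 and 3 arrays). The array sides were set on part of these probes, so their positive sign is not a result. The median over the 43 RNA gene probes averaged 0.06 ± 0.05, -0.05 ± 0.16, 0.13 ± 0.14 and 0.06 ± 0.12 on the same groups of arrays in the same order. None of the 83 members faces an RP gene.

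**Figure D1:**
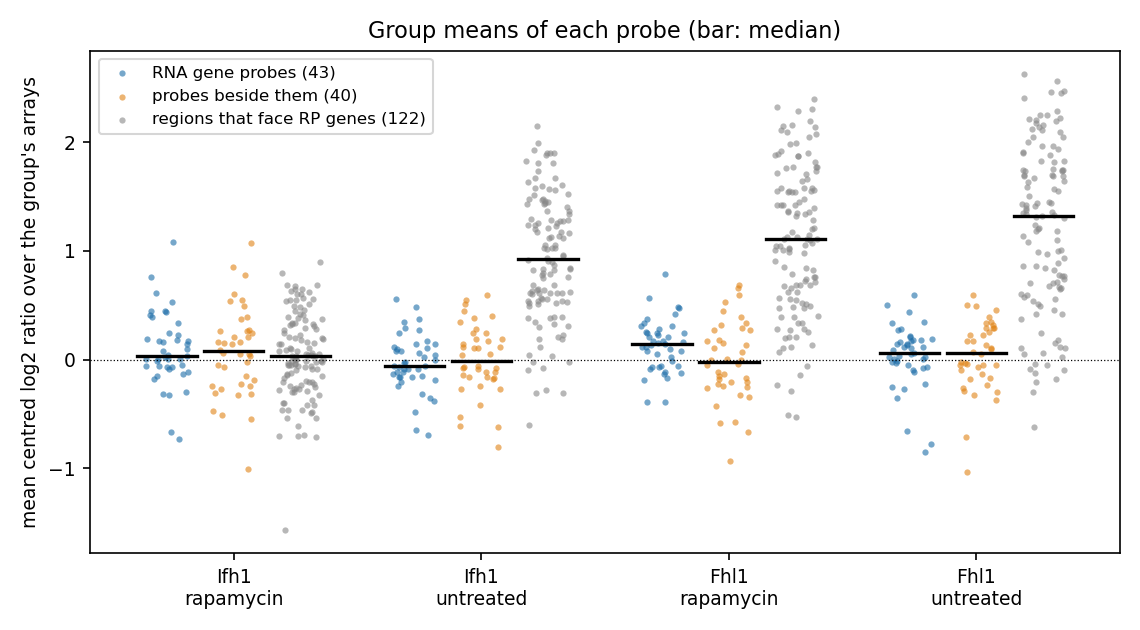
Mean centred log2 ratio of each probe over the arrays of its group (y axis), for RNA gene probes, probes beside them and regions that face RP genes, in the 4 groups, with a black bar at each median. The medians of the RNA gene probes lie between -0.06 and 0.14 in all 4 groups, while those of the regions that face RP genes are 0.03, 0.92, 1.11 and 1.32 from left to right.

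The 95% intervals of the limma fit bound what could have been missed. The upper end lay below 1, a doubling of the ratio, for 58 of 83 members with Ifh1 in rapamycin, 72 with Ifh1 untreated, 70 with Fhl1 in rapamycin and 65 with Fhl1 untreated. The median half-width of a member's interval was 0.68, 0.59, 0.53 and 0.68 in these groups. The highest upper ends were 2.26 at SNR70, 1.46 at SNR67, 1.52 at SNR52 and 1.59 at SNR48, so for these box C/D genes the interval held values as large as the RP medians. With Ifh1 in rapamycin the sides are not settled, so an upper end alone sets no bound there. With the sides used here, 46 of 83 members had an interval wholly between -1 and 1 in that group, and the lowest lower end was -2.11.

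RNA genes and the regions beside them were compared on each array. The gene median minus the flank median averaged -0.02 ± 0.14 with Ifh1 in rapamycin (n = 3), -0.10 ± 0.20 with Ifh1 untreated (n = 4), 0.14 ± 0.09 with Fhl1 in rapamycin (n = 5) and 0.00 ± 0.04 with Fhl1 untreated (n = 3). With Fhl1 in rapamycin the 5 differences were 0.19, -0.02, 0.22, 0.16 and 0.12, so 4 of 5 arrays had the genes above their flanks. With Fhl1 untreated they were -0.05, 0.04 and 0.01, which did not overlap with 4 of those 5. With Ifh1 untreated, replicate 4 gave -0.38 and the other three lay between -0.05 and 0.10, with a mean of 0.00 without replicate 4. This is a description of the lists, with no test, and the Fhl1 rapamycin value was -0.08 with the array sides as deposited.

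**Figure D2:**
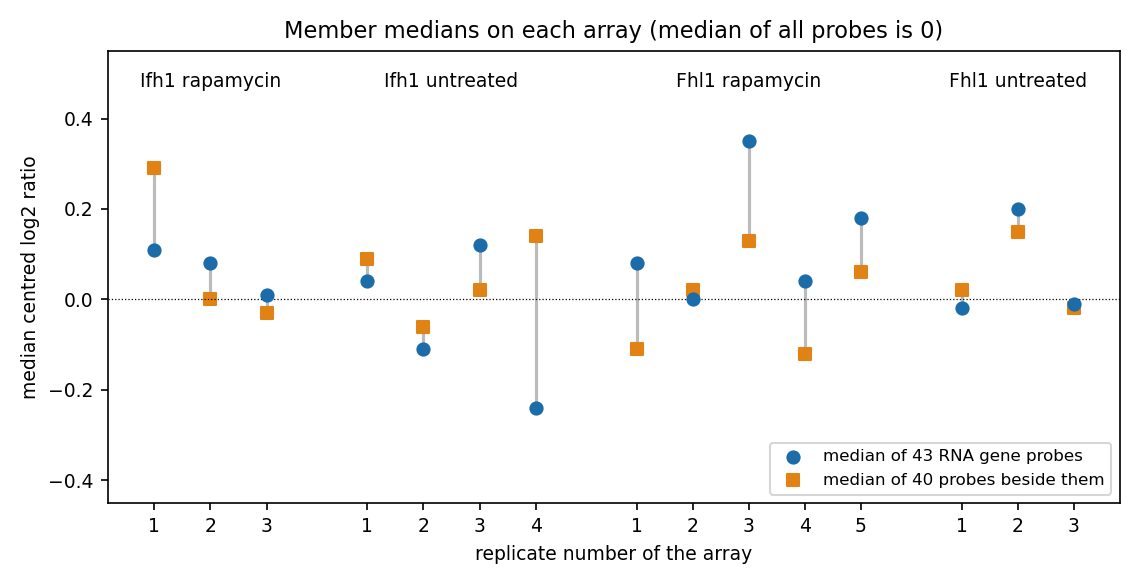
Median centred log2 ratio (y axis) of the 43 RNA gene probes and the 40 probes beside them on each of the 15 arrays, grouped by protein and treatment, with a grey line joining both medians of an array. The gene medians run from -0.24 to 0.35, and no array has either median near the level of the regions that face RP genes in untreated cells.

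Values of a gene and of its own flank were only loosely related. Over the 40 RNAs with both probes, Pearson's r of the group means was 0.28 with Ifh1 in rapamycin, 0.06 with Ifh1 untreated, 0.26 with Fhl1 in rapamycin and 0.09 with Fhl1 untreated. These points share their arrays, and gene and flank lie next to each other except at the 3 RNAs whose region lies beyond a host gene. The correlations are given as a description. The gene was above its flank for 17, 16, 28 and 22 of the 40 RNAs in these groups. The SD over RNAs was 0.34, 0.27, 0.24 and 0.26 for the genes and 0.41, 0.33, 0.37 and 0.33 for the flanks.

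Of the RNAs needed for precursor cutting, U14 was measured, and it lay near 0 in every group. The U14 gene, snR128, had -0.31, 0.15 and -0.06 with Ifh1 in rapamycin and 0.08, -0.11, 0.07 and -0.28 with Ifh1 untreated. It had -0.25, -0.08, 0.62, 0.31 and 0.18 with Fhl1 in rapamycin and -0.17, 0.29 and -0.45 with Fhl1 untreated. All 4 groups had arrays on both sides of 0 and overlapped. U14 is cut from a precursor that it shares with SNR190, a box C/D snoRNA. The SNR190 gene averaged 0.17 ± 0.71, -0.11 ± 0.65, -0.19 ± 0.60 and 0.05 ± 1.20 in the same order of groups, and the spacer between both genes averaged 0.06 ± 1.16, 0.40 ± 0.28, -0.33 ± 0.27 and 0.13 ± 0.81. On that spacer all 4 Ifh1 untreated arrays were above 0 (0.21, 0.24, 0.82 and 0.34). U3, snR30 and snR10, which also serve precursor cutting, were not analysed here.

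The region that holds the start of the SNR190 and U14 precursor also faces RPA34, which encodes a subunit of RNA polymerase I. This probe, iSNR190, had 1.01, 0.70 and 0.64 with Ifh1 in rapamycin and -0.03, -0.20, 0.73 and -0.88 with Ifh1 untreated. It had -0.06, -1.12, 0.49, -1.46 and -1.20 with Fhl1 in rapamycin and -0.12, 0.90 and 0.62 with Fhl1 untreated. The 3 Ifh1 rapamycin arrays lay above all 5 Fhl1 rapamycin arrays with the sides used here. The mean difference between these groups was 1.45 (SE 0.46, limma adjusted p = 0.602), and it ran from -0.12 to 1.45 over the 8 combinations of sides of the Ifh1 rapamycin arrays. It did not pass the test under any of them, the smallest adjusted p being 0.602.

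U5 snRNA, a component of the tri-snRNP that joins exons, had probes on its gene and upstream of it. The long and short forms, SNR7-L and SNR7-S, are probes on nested versions of 1 gene. SNR7-L averaged 0.02 ± 0.59 with Ifh1 in rapamycin, 0.06 ± 0.33 with Ifh1 untreated, -0.06 ± 0.32 with Fhl1 in rapamycin and -0.25 ± 0.41 with Fhl1 untreated. SNR7-S averaged 0.19 ± 0.47, 0.35 ± 0.23, -0.09 ± 0.57 and 0.14 ± 0.46, and its 4 Ifh1 untreated arrays, at 0.10, 0.31, 0.32 and 0.65, were all above 0.

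The region upstream of U5, iSNR7-S, had the smallest p of all members. It also faces PET54, a gene for mitochondrial translation. It had 0.89, 1.03 and 1.30 with Ifh1 in rapamycin, and -0.18, -0.49, 0.11 and -1.57 with Ifh1 untreated. With Fhl1 it had -0.37, -0.77, 0.13, -1.69 and -1.97 in rapamycin and -0.40, -0.01 and 0.11 untreated. The Ifh1 rapamycin arrays thus lay above all others with the sides used here, and 4 of 5 Fhl1 rapamycin arrays lay below 0. The difference of Ifh1 and Fhl1 in rapamycin was 2.01 (SE 0.46, 95% interval 1.03 to 2.99), but limma's adjusted p was 0.191. Over the 8 combinations of sides it ran from -0.14 to 2.01. The Fhl1 rapamycin mean was -0.93 ± 0.89 (limma adjusted p = 0.254), and leaving out replicate 3 of that group, the array at 0.13, gave -1.20 and the smallest adjusted p of any member in any fit, 0.0857.

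U4, which pairs with U6 before splicing, averaged 0.45 ± 0.59 at its gene snR14 with Ifh1 in rapamycin, 0.29 ± 0.34 with Ifh1 untreated, -0.17 ± 0.50 with Fhl1 in rapamycin and 0.02 ± 0.37 with Fhl1 untreated. The upstream region isnR14 had 1.04, 0.58 and 0.19 with Ifh1 in rapamycin, all above the 5 Fhl1 rapamycin values of -0.63, -0.02, -0.19, -0.44 and 0.06 with the sides used here. Their difference of 0.85 had an adjusted p of 0.87 in limma and ran from -0.36 to 0.85 over the 8 combinations of sides. U2, whose gene is LSR1 and therefore outside the name rule, averaged 0.30 ± 1.12, 0.31 ± 0.63, 0.01 ± 0.59 and 0.30 ± 0.50 in the 4 groups, and U1 was not analysed here.

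U6 and snR52 are the pair of members made by RNA polymerase III. The U6 gene, SNR6, had 0.18, -0.10 and -0.12 with Ifh1 in rapamycin and 0.05, -0.98, -0.13 and 0.42 with Ifh1 untreated. With Fhl1 it had -0.11, 0.26, 2.02, 0.31 and 0.37 in rapamycin and -0.10, -0.01 and -0.04 untreated. One Fhl1 rapamycin array, at 2.02, stood far above the others, and the mean of 0.57 ± 0.83 did not pass the test (limma adjusted p = 0.68). The region on the 3′ side of SNR6 had -1.21, -1.16, -0.53 and -0.29 with Ifh1 untreated, all below 0. Its mean there was -0.80 ± 0.46, which did not pass the test either (limma adjusted p = 0.564), while with Fhl1 untreated it averaged -0.23 ± 0.71.

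Among box H/ACA genes, snR3, a guide for the large ribosomal subunit RNA, had the smallest p with Fhl1. It had -0.06, 0.30, 0.82, 0.04 and -0.04 with Fhl1 in rapamycin, against -1.35, 0.08 and -1.27 with Fhl1 untreated. A pair of the 3 untreated arrays lay below every rapamycin array and the third among them. The difference, rapamycin minus untreated, was 1.06 (SE 0.40, 95% interval 0.21 to 1.91, limma adjusted p = 0.999). With Ifh1, snR3 averaged 0.08 ± 0.66 in rapamycin and 0.08 ± 0.42 untreated. The medians over the 10 H/ACA gene probes were -0.02 with Ifh1 in rapamycin, 0.10 with Ifh1 untreated, 0.19 with Fhl1 in rapamycin and 0.02 with Fhl1 untreated.

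SNR8, another H/ACA snoRNA gene, had -0.87, -0.61 and -0.53 with Ifh1 in rapamycin, against 0.71, -0.47, 0.16 and -0.01 with Ifh1 untreated. The 3 rapamycin arrays lay below the 4 untreated arrays with the sides used here. The difference was -0.77 (SE 0.32, limma adjusted p = 0.824), and over the 8 combinations of sides it ran from -0.77 to 0.58. The region on its 3′ side, iSNR8, faces YTM1, a gene for large-subunit assembly. It had 0.12, 0.18, 0.04 and 0.14 with Ifh1 untreated, a narrow spread, against -1.14, -0.73 and -0.27 with Fhl1 untreated. Their difference of 0.83 did not pass the test (limma adjusted p = 0.997).

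SNR42 illustrates how wide the spread of a flank could be. Its upstream region iSNR42 faces TFA2, a gene for the general transcription factor TFIIE. It had 2.34, -1.17 and -0.40 with Ifh1 in rapamycin and 1.26, -1.65, 0.16 and -0.35 with Ifh1 untreated. It had 0.20, -0.28, 0.82, -1.32 and -0.30 with Fhl1 in rapamycin and -1.10, -1.80 and -0.18 with Fhl1 untreated. The Fhl1 untreated mean of -1.03 ± 0.82 was the lowest of any member in any group, with a limma adjusted p of 0.999. Its range over all 15 arrays was 4.15. Next to SNR46, another H/ACA gene, the 3′ region iSNR46 had 0.76, 0.22, 1.04, 1.11 and 0.17 with Fhl1 in rapamycin, all above 0, against -0.35, 0.35 and -0.11 with Fhl1 untreated. The rapamycin mean of 0.66 ± 0.45 did not pass the test (limma adjusted p = 0.54).

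The 29 box C/D gene probes had medians of 0.10 with Ifh1 in rapamycin, -0.11 with Ifh1 untreated, 0.14 with Fhl1 in rapamycin and 0.11 with Fhl1 untreated. SNR65, a methylation guide, had -0.60, -1.0 and -0.58 with Ifh1 in rapamycin, against 0.48, 0.01, -0.28, 0.29 and 0.11 with Fhl1 in rapamycin. The arrays did not overlap, and the difference was -0.85 (SE 0.30, limma adjusted p = 0.677), running from -0.85 to 0.60 over the 8 combinations of sides.

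The methylation guide gene SNR62 was below 0 on 3 of 4 arrays with Ifh1 untreated, and its flank was above 0 with Ifh1 in rapamycin. The SNR62 gene had 0.02, 0.02 and -0.01 with Ifh1 in rapamycin, against 0.40, -1.76, -0.27 and -1.11 with Ifh1 untreated. Its upstream region iSNR62, shared with WHI2, a gene of the stress response, had 1.56, 0.20 and 0.79 with Ifh1 in rapamycin, against -0.67, -0.18, -0.19 and -0.04 with Ifh1 untreated. The difference at iSNR62 was 1.12 (SE 0.44, limma adjusted p = 0.824) and ran from -0.58 to 1.12 over the 8 combinations of sides.

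The region on the 3′ side of SNR69, a box C/D gene, faces RGT1, a repressor of hexose transporter genes, and had lower means in rapamycin with both proteins, without passing the test. The iSNR69 probe had -1.15, -0.97 and -0.91 with Ifh1 in rapamycin, against 1.30, 0.50, -0.40 and -0.42 with Ifh1 untreated. It had -0.46, -0.15, -0.28, -1.57 and -0.43 with Fhl1 in rapamycin, against 0.66, 0.19 and 0.12 with Fhl1 untreated. In both pairs the arrays did not overlap. Rapamycin minus untreated was -1.25 with Ifh1 (SE 0.43, limma adjusted p = 0.707) and -0.90 with Fhl1 (SE 0.41, limma adjusted p = 0.999). The Ifh1 difference ran from -1.25 to 0.77 over the 8 combinations of sides. The SNR69 gene itself averaged 0.04 ± 0.03, 0.56 ± 1.51, -0.12 ± 0.13 and 0.03 ± 0.15, with 1 Ifh1 untreated array at 2.80.

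**Figure D3:**
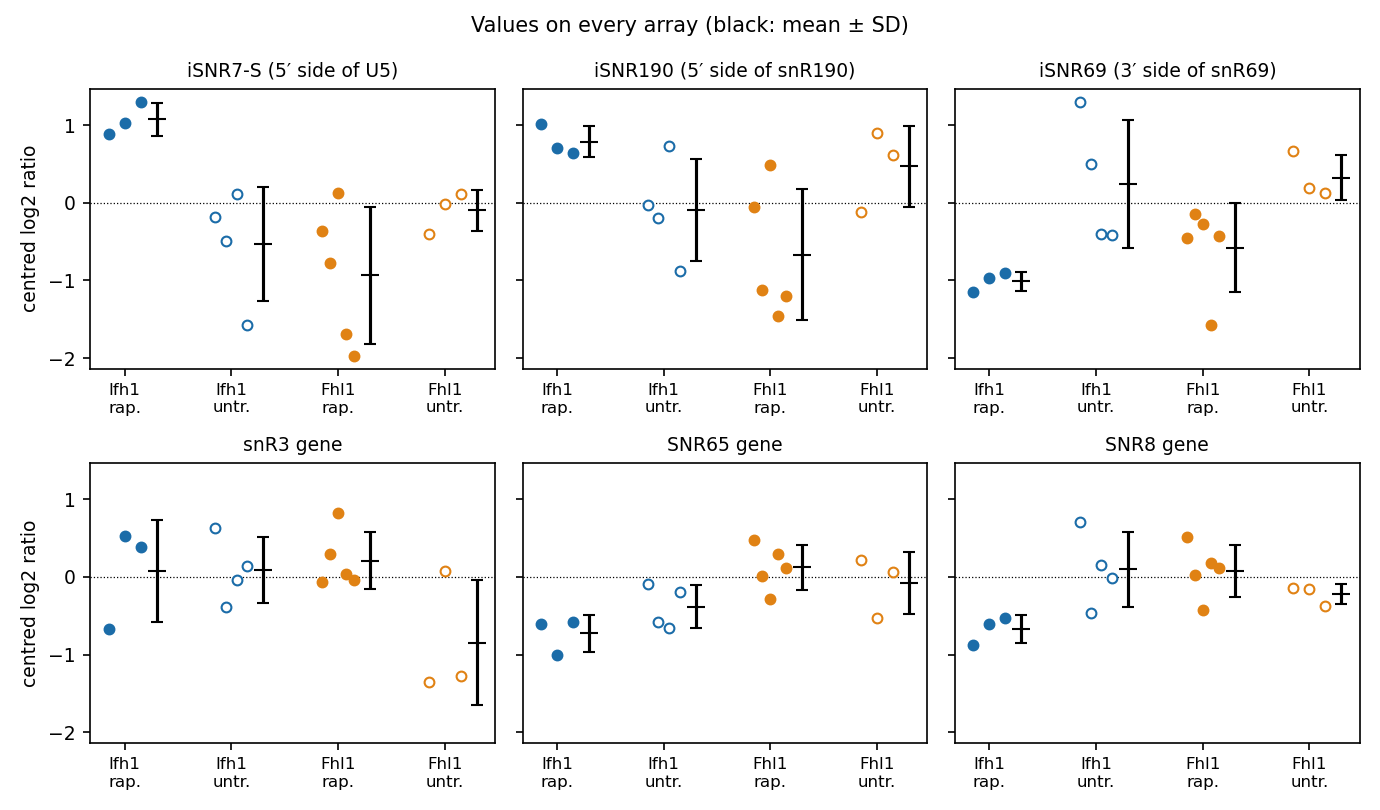
Centred log2 ratio (y axis) on every array for 6 members with low p, by group, with Ifh1 in blue, Fhl1 in orange, rapamycin filled and untreated open, and mean ± SD in black. The Ifh1 rapamycin points at iSNR7-S (0.89 to 1.30) and iSNR190 (0.64 to 1.01) lie above the Fhl1 rapamycin points and at iSNR69 below the untreated ones, but their sides are not settled.

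Several box C/D genes lie in clusters that are transcribed as 1 precursor, and 6 flank probes lie on the spacers inside them. Their medians were 0.10 with Ifh1 in rapamycin, -0.08 with Ifh1 untreated, 0.14 with Fhl1 in rapamycin and 0.21 with Fhl1 untreated. Averaged over the 12 arrays whose side is clear, the 6 spacers lay between 0.03 and 0.22. In the cluster of SNR57 and SNR55, the SNR55 gene had 0.48, -0.17 and 1.01 with Ifh1 in rapamycin and -0.05, 0.08, -0.46 and -0.52 with Ifh1 untreated. It had -0.17, 0.20, -0.23, -0.28 and 0.17 with Fhl1 in rapamycin and 0.43, 0.34 and 0.56 with Fhl1 untreated. The 3 Fhl1 untreated arrays lay above all Fhl1 rapamycin and all Ifh1 untreated arrays. The adjusted p was 0.999 for rapamycin minus untreated with Fhl1 and 0.997 for Ifh1 minus Fhl1 untreated in limma.

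Of the RNAs encoded in introns, the H/ACA snoRNA SNR44 lies in RPS22B and the C/D snoRNA SNR59 in RPL7B, both RP genes. The SNR44 gene averaged -0.06 ± 0.37 with Ifh1 in rapamycin, 0.08 ± 0.33 with Ifh1 untreated, 0.23 ± 0.49 with Fhl1 in rapamycin and 0.16 ± 0.12 with Fhl1 untreated. The 3 Fhl1 untreated values were 0.07, 0.11 and 0.30, all above 0. The SNR59 gene averaged 0.24 ± 0.30, -0.65 ± 0.92, 0.47 ± 0.61 and 0.19 ± 0.37. With Ifh1 untreated its values were -0.23, -0.90, 0.32 and -1.81 (limma adjusted p = 0.672). The regions that face RP genes had medians of 0.03 with Ifh1 in rapamycin, 0.92 with Ifh1 untreated, 1.11 with Fhl1 in rapamycin and 1.32 with Fhl1 untreated. The regions beyond the 3′ ends of the host genes, iSNR44 and iSNR59, averaged 0.26 ± 0.13 and 0.16 ± 0.49 with Ifh1 in rapamycin, -0.16 ± 0.64 and 0.11 ± 0.44 with Ifh1 untreated, -0.34 ± 1.00 and 0.00 ± 0.89 with Fhl1 in rapamycin, and -0.30 ± 1.02 and -0.33 ± 0.60 with Fhl1 untreated.

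In all, 10 RNAs have an RP gene next to or around them, and all but SNR189 lie away from that gene's start. Besides SNR44 and SNR59 these are SNR13 beside RPL27B, SNR34 beside RPS29A, SNR4 beside RPS26B, SNR65 and SNR189 beside RPS14A, SNR56 beside RPS8A, SNR57 beside RPS25B and SNR63 beside RPL31A. Their 10 gene probes had medians of 0.07 with Ifh1 in rapamycin, 0.01 with Ifh1 untreated, 0.22 with Fhl1 in rapamycin and 0.18 with Fhl1 untreated. The other 33 gene probes had 0.02, -0.06, 0.10 and 0.02. Above 0 were 6 of the 10 with Ifh1 in rapamycin, 5 with Ifh1 untreated, 9 with Fhl1 in rapamycin and 8 with Fhl1 untreated, against 21, 14, 21 and 20 of the 33 in the same order of groups.

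The names fix on which side of a gene its region lies. The 6 spacers inside clusters, most of them also 5′ of their own RNA, and the 3 regions beyond host genes were set apart. Among the rest of the 40 flanks, 14 hold the 5′ side of their own RNA. Their medians were 0.18 with Ifh1 in rapamycin, -0.10 with Ifh1 untreated, -0.14 with Fhl1 in rapamycin and -0.03 with Fhl1 untreated. The 17 flanks on the 3′ side had -0.02, 0.14, 0.00 and 0.05. For 13 further RNAs the 5′ side lies on a probe named after the neighbouring gene, which the name rule leaves out. These 13 had medians of 0.14, 0.10, -0.25 and -0.08, and 0 of them were called in any group.

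Rapamycin made no detectable difference at any member. For rapamycin minus untreated with Ifh1, 0 of 83 members were called, against 0.0147% of all probes, and with Fhl1 0 of 83, against 0%. At an unadjusted p under 0.05 there were 5 members with Ifh1 (6.02%, against 6.04% of all probes) and 4 with Fhl1 (4.82%, against 3.57%). The median difference over the 43 gene probes was 0.03 with Ifh1 and 0.06 with Fhl1, and over the 40 flanks 0.04 with Ifh1 and -0.05 with Fhl1. At the regions that face RP genes it was -0.87 with Ifh1 and -0.11 with Fhl1. The median half-width of a member's 95% interval was 0.90 with Ifh1 and 0.86 with Fhl1, so a doubling or halving stayed inside the interval for most members: only 25 of 83 with Ifh1 and 32 of 83 with Fhl1 had an interval wholly between -1 and 1.

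The arrays of rapamycin and untreated cells did not overlap at 9 members with Ifh1 (10.8%, against 8.26% of all probes). This count and its directions hold for the sides used here, which are not settled for Ifh1 in rapamycin. The rapamycin arrays were above at iSNR7-S, iSNR62, SNR63 and SNR64 and below at iSNR8, iSNR53, iSNR69, SNR8 and SNR50. With Fhl1 they did not overlap at 3 members (3.61%, against 2.65% of all probes), above at SNR62 and below at SNR55 and iSNR69.

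Ifh1 and Fhl1 were also set against each other. For Ifh1 minus Fhl1 in rapamycin, 0 of 83 members were called, against 0.0735% of all probes, and in untreated cells 0 of 83, against 0%. At an unadjusted p under 0.05 there were 6 members in rapamycin (7.23%, against 5.51% of all probes) and 2 in untreated cells (2.41%, against 4.13%). The rapamycin count ran from 1 to 6 over the 8 combinations of sides, and that over all 6803 probes from 334 to 544. The arrays of both proteins did not overlap at 7 members in rapamycin with the sides used here (8.43%, against 4.34% of all probes) and at 4 in untreated cells (4.82%, against 5.1%). In untreated cells, where all sides are clear, Ifh1 lay above Fhl1 at iSNR8 and below it at SNR55, SNR57 and SNR60. The median of the 43 gene probes was -0.13 in rapamycin and -0.08 in untreated cells.

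The change with rapamycin was compared between the proteins as an interaction, Ifh1 minus Fhl1. Here 0 of 83 members were called, against 0% of all probes, and 4 had an unadjusted p under 0.05 (4.82%, against 4.37% of all probes). These were iSNR7-S at 2.44 (SE 0.67), iSNR190 at 2.01 (SE 0.66), SNR55 at 1.18 (SE 0.44) and SNR8 at -1.06 (SE 0.45), each with a limma adjusted p of 0.984. Over the 8 combinations of sides, iSNR7-S ran from 0.29 to 2.44, iSNR190 from 0.44 to 2.01, SNR55 from 0.19 to 1.29 and SNR8 from -1.06 to 0.28, and between 0 and 4 members had an unadjusted p under 0.05.

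The proteins that work with these RNAs were read through the regions that face their genes, for 49 of 52 genes of a fixed list. In each of the 4 groups at most 1 of the 49 regions was called, and it was UTP6, a protein of the small-subunit processome. That region also faces the RP gene RPS18A. It averaged 0.19 with Ifh1 in rapamycin (SE 0.24, limma adjusted p = 0.992), 0.64 with Ifh1 untreated (SE 0.21, adjusted p = 0.366), 1.17 with Fhl1 in rapamycin (SE 0.18, adjusted p = 0.00207) and 1.20 with Fhl1 untreated (SE 0.24, adjusted p = 0.0226), and so was called with Fhl1 in both. The 24 processome regions had medians of 0.16, -0.02, 0.07 and 0.13 in this order. The 4 regions for core proteins of box C/D particles (Nop1, Nop56, Nop58 and Snu13) had medians of 0.13, -0.23, -0.18 and -0.26, and the 4 of H/ACA particles (Cbf5, Nhp2, Nop10 and Gar1) had -0.09, 0.02, -0.11 and 0.08. The region that faces TBF1 had -0.12, -0.19, -0.29 and -0.09. None of the 49 was called in any of the differences between groups.

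On the sides as deposited, some box C/D gene probes were far above 0 on the 4 arrays whose deposited median was below -0.5 and far below 0 on the 5 arrays with a median above 0.5. These low and high arrays come from all 4 groups. SNR67, a methylation guide gene, had a lowest, median and highest value of 0.95, 2.79 and 3.25 on the low arrays, -0.73, -0.19 and 1.25 on the 6 arrays between, and -2.44, -0.82 and -0.44 on the high arrays. SNR52, the guide made by RNA polymerase III, had 0.46, 1.30 and 1.72 on the low arrays, -0.14, 0.52 and 1.04 on those between, and -2.15, -2.05 and -1.03 on the high arrays. SNR51 had 0.87, 1.80 and 2.04 on the low, -0.48, 0.05 and 0.84 on the middle and -2.29, -1.02 and -0.34 on the high arrays. In none of these did the low and high arrays overlap.

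Their flanks did not share this. Low and high arrays did not overlap at 8 of 43 gene probes (18.6%), 2 of 40 flank probes (5%) and 6.28% of the other 6720 probes on the array. The 8 were SNR47, SNR48, SNR51, SNR52, SNR53, SNR66 and SNR67, with the low arrays above, and SNR61, with the low arrays below. All 8 are box C/D genes. Between pairs of low arrays the median Pearson r over the 43 gene probes was 0.50, between pairs of high arrays 0.41, and between a low and a high array -0.32. Over the 40 flanks these were -0.02, 0.06 and -0.01, and over the other probes 0.20, 0.22 and -0.09. These correlations describe 6, 10 and 20 pairs of arrays, and no test was made.

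**Figure D4:**
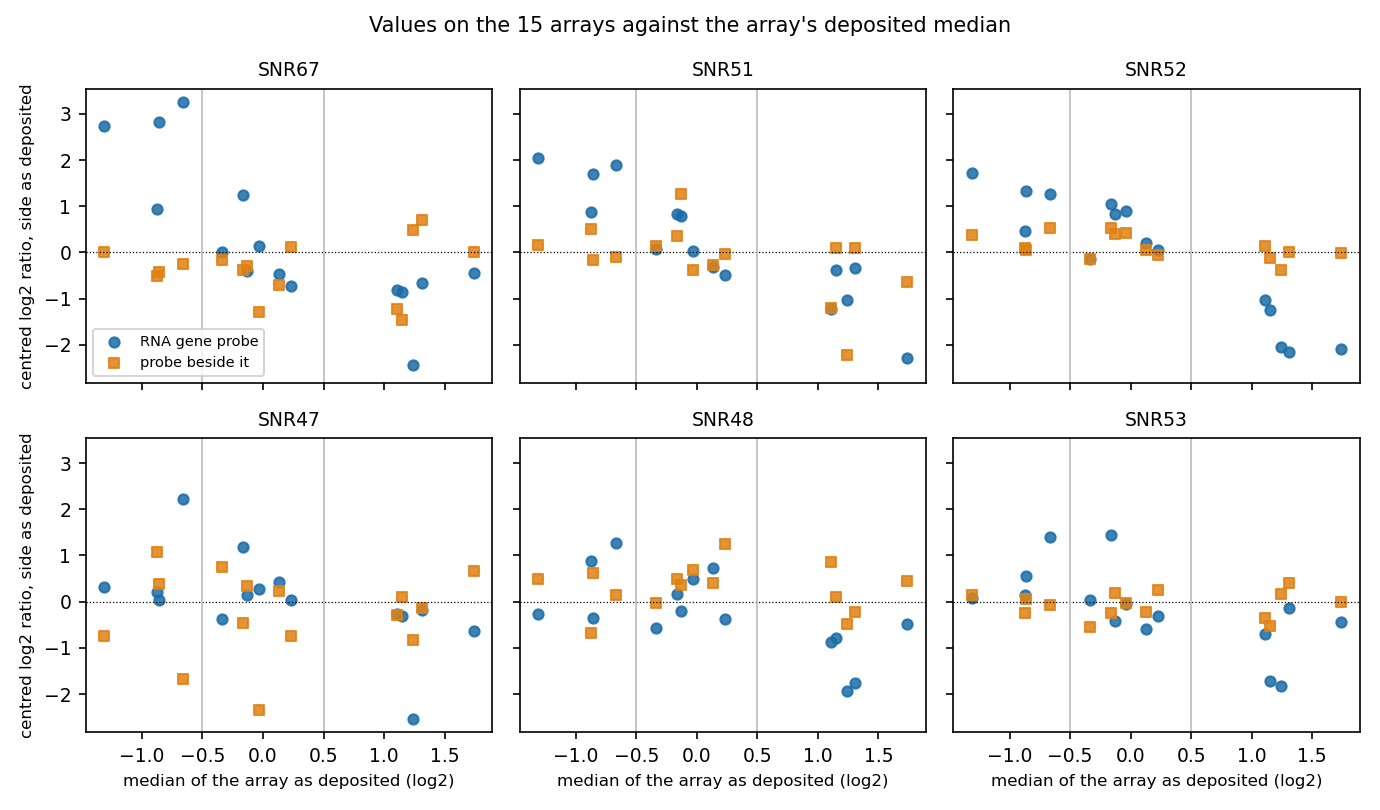
Centred log2 ratio on the side as deposited (y axis) on the 15 arrays against the median of the array as deposited (x axis, log2), for 6 box C/D gene probes and the probes beside them, with grey lines at -0.5 and 0.5. The gene probes of SNR67, SNR51 and SNR52 lie above 0 on all 4 low arrays and below 0 on all 5 high arrays, and the probes beside them do not.

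After the arrays were turned, SNR67 averaged -0.30 ± 2.21 with Ifh1 in rapamycin, -0.11 ± 0.76 with Ifh1 untreated, -0.39 ± 2.03 with Fhl1 in rapamycin and -0.78 ± 1.82 with Fhl1 untreated. Values over 1 in size made up 14.9% of gene probe values on the high arrays, 11.6% on the low arrays and 5.04% on those between. Over all arrays they made up 10.1% of gene probe values, 13.5% of flank values and 12.9% of the values of all other probes. The 7 gene probes with most such values held 34 of 65. What sets the kinds of array apart was not tested.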

How the data were processed

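The deposited table holds log2 ratios of the authors for 6803 probes on 15 arrays; per the labels, arrays were scanned and quantified with GenePix. For spot filters, normalization, numerator and genome build the labels say nothing. Titles gave each array its group and replicate number. Members and gene lists were chosen with earlier results of these data known.

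Each array was centred on its median and turned by its large-subunit RP promoter median. limma 3.58.1 (R 4.3.3) fitted 4 group means to all arrays, two-sided, with 9 results, Benjamini-Hochberg adjustment over all probes and a threshold of 0.05. The script was tested on simulated data, with 200 probes changed by a known size. A log2 change of 1 was recovered at 0 of 200 probes in each difference between groups. In the group means the same change was recovered at 11% (Ifh1 in rapamycin) to 43.5% (Fhl1 in rapamycin) of changed probes. A change of 2 was recovered at 60.5% to 72% of changed probes in the differences between 2 groups and at 16% in the interaction. For the group means this share was 84.5% to 94.5%. Gene-against-flank values are descriptions without a test. Python 3.11.15 with pandas 2.3.3 and numpy 2.4.6 made the summaries. Neighbours and sides were read from NCBI's R64 table, which matched 83 of 83 members. That regions named iX lie on the higher-coordinate side of X was checked: a probe was present for 41 of 48 genes that have a gap there and nowhere else (85.4%), and for 1 of 57 whose single gap is opposite (1.75%). No coordinates are printed because the array's build is not known.

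Named were RNAs listed by name (U14, SNR190 and the snRNAs), the 3 highest and 3 lowest of each group, the 3 lowest p of each difference, and RNAs in RP introns. High means not given above were 1.08 ± 0.95 at SNR70 with Ifh1 in rapamycin, where sides are not settled. With Ifh1 untreated they were 0.59 ± 1.03 at iSNR68 and 0.55 ± 0.85 at iSNR34. With Fhl1 in rapamycin they were 0.79 ± 1.02 at SNR58 and 0.69 ± 1.03 at iSNR51. With Fhl1 untreated they were 0.59 ± 0.24 at iSNR55, 0.59 ± 0.28 at SNR48 and 0.50 ± 0.90 at iSNR65. Other members, named in counts of arrays that did not overlap and in the account of array kinds, were chosen after their values were seen. The number of arrays limits the precision, and arrays may share a reference preparation. Alternatives were other array sides, no centring, scaling, fewer arrays, a replicate block, left-out replicates and a block for the kind of array.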

Additional observations from a re-analysis of the deposited data

Results flagged for a closer look

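In groups of 4 and 5 arrays, 1 array stood far from the others at 6 probes by Dixon's test, which was given 72 sets of values, nearly all from the 35 members named by the rule, and which chance passes for about 1 in 20 groups. With Fhl1 in rapamycin these were the value of -1.57 at iSNR69 in replicate 4, 2.02 at SNR6 in replicate 3, 0.10 at SNR69 in replicate 2 and -2.72 at SNR70 in replicate 5. With Ifh1 untreated they were -1.11 at iSNR44 in replicate 2 and 1.20 at iSNR51 in replicate 3.

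At 5 of the 83 probes every array of a group lay on the opposite side of 0 from every array of the compared group. For rapamycin minus untreated this held at iSNR62 with Ifh1 (1.12), at iSNR8 with Ifh1 (-0.27), at SNR50 with Ifh1 (-0.56) and at iSNR69 with Fhl1 (-0.90). For Ifh1 minus Fhl1 in untreated cells it held at iSNR8 (0.83) and at SNR57 (-0.36). The Ifh1 rapamycin values depend on sides that are not settled. These differences were not tested beyond the limma fit, in which none of them was called. The share of all probes with groups on opposite sides of 0 was not computed. Groups that did not overlap, a wider condition, were found at 8.26% of all probes for Ifh1 rapamycin minus untreated. The same condition held at 2.65% for Fhl1 rapamycin minus untreated and at 5.1% for Ifh1 minus Fhl1 in untreated cells.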

How the results depend on the processing

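No member was called in any of 151 refits under 30 other settings, in each of which the whole table was fitted; the smallest adjusted p of a member was 0.0857. The 35 named members had 5285 values under other settings, 0 of them called and 4355 (82.4%) on the same side of 0. Of the 8 combinations of Ifh1 rapamycin sides, 1 repeats the main fit and 1 the setting with small-subunit RP promoters, so these totals hold repeats. Counts of all probes called did change from 24 (Ifh1 untreated), 66 (Fhl1 in rapamycin), 45 (Fhl1 untreated), 1 (Ifh1 rapamycin minus untreated) and 5 (Ifh1 minus Fhl1 in rapamycin). With the sides as deposited they were 0 for Ifh1 untreated, Fhl1 in rapamycin, Fhl1 untreated, Ifh1 rapamycin minus untreated and Ifh1 minus Fhl1 in rapamycin. Without centring they were 0 for the first 4 of these and 1 for the last. With sides set on small-subunit RP promoters, Ifh1 rapamycin minus untreated gave 0 and Ifh1 minus Fhl1 in rapamycin 8. With only the arrays compared, Ifh1 untreated, Fhl1 untreated and Ifh1 rapamycin minus untreated gave 0. Under other combinations of Ifh1 rapamycin sides, Ifh1 rapamycin minus untreated gave 0 in 5, and Ifh1 minus Fhl1 in rapamycin gave 8, 11 or 12 in 5. Replicate numbers did not pair the arrays (correlation of deviations -0.227 to 0.0727), and with the replicate block Ifh1 rapamycin minus untreated gave 0 and Ifh1 minus Fhl1 in rapamycin 2. Leaving out 1 array gave 6 to 14 for Ifh1 untreated, 38 (without replicate 1) to 69 for Fhl1 in rapamycin, 11 (without replicate 1; 12 without replicate 2) to 48 for Fhl1 untreated, 0 to 1 for Ifh1 rapamycin minus untreated and 2 (without Ifh1 rapamycin replicate 1 or 3) to 5 for Ifh1 minus Fhl1 in rapamycin. The gene minus flank median with Fhl1 in rapamycin was -0.08 with sides as deposited, and with Fhl1 untreated 0.06 over RNAs with both probes. Chosen after seeing the data, a block for the kind of array gave 0 for Ifh1 rapamycin minus untreated, and on the single arrays of middle kind the gene minus flank median was -0.18 with Ifh1 in rapamycin and -0.05 with Fhl1 untreated. The causes were not tested.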
